A study of Mus musculus with 3 samples.

Results

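The D-type cyclin genes Ccnd1, Ccnd2 and Ccnd3 were followed through the cell classes of embryonic mouse dorsal skin epithelium, in each library and in cells with and without an RNA molecule of Mki67. These are the 3 D-type cyclin genes of the mouse, chosen by name, and all of them were among the 14656 genes that both count tables share. Cells were wild type (WT), of strain C57BL/6JOlaHsd, untreated, and taken from embryos at E14.5, when the first hair follicle placodes form as small epithelial thickenings. There were 2 placode-enriched libraries, sorted as live cells carrying the adhesion molecule MAdCAM-1 on their surface, and 1 total epithelium library, sorted as live cells only. Each library pooled the epithelium of 3 to 4 littermates, so its embryos cannot be told apart, and the total epithelium library had no replicate.

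D-type cyclins are the regulatory partners of the kinases CDK4 and CDK6. The cyclin-kinase pairs phosphorylate the retinoblastoma protein, which frees E2F transcription factors and lets a cell pass from G1 into DNA synthesis. Signals from outside the cell act on the amounts of these cyclins, and INK4 and CIP/KIP inhibitors hold the kinases in check. Basal cells of the embryonic epidermis divide, suprabasal cells leave the basement membrane and start to differentiate, and placode cells are known for leaving the cell cycle early. Mki67, which encodes the Ki-67 protein, is the usual marker of cycling cells, and its RNA is highest in G2 and M phase.

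On GRCm38, the assembly also called mm10, Ccnd1 (ENSMUSG00000070348.5) lies on the minus strand at chr7:144929931-144939925 and Ccnd2 (ENSMUSG00000000184.12) on the minus strand at chr6:127125162-127152193. Ccnd3 (ENSMUSG00000034165.16) lies on the plus strand at chr17:47505051-47599691. Each is protein coding and each overlaps genes annotated on the opposite strand, which are LTO1 for Ccnd1, 2 antisense RNAs for Ccnd2 and Bysl for Ccnd3. The strand setting of the counting was not given in the sources used here, so reads of these overlaps cannot be told apart.

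After removal of called doublets, 1507 and 1567 cells of placode-enriched libraries 1 and 2 and 1590 cells of the total epithelium library were used, with medians of 21642, 23377 and 21934.5 unique molecular identifiers (UMIs, 1 per captured RNA molecule) per cell. Cells were clustered without the 3 cyclins, without Mki67 and without the cell cycle lists, so the levels of the cyclins did not shape the classes. Of the 13 clusters, 4 met the marker rule for placode-like cells, 5 for basal-like cells, 1 for suprabasal-like cells and 1 for melanoblast-like cells, and 2 met none and stayed unnamed. Placode-like cells numbered 649 and 697 in the placode-enriched libraries and 53 in total epithelium; unnamed cells numbered 330, 335 and 51, suprabasal-like cells 21, 20 and 316, and basal-like cells 506, 515 and 1150. The sort sets these shares. Cell barcodes shared between libraries numbered 2 for the placode-enriched pair and 1 for each of these with total epithelium. Basal-like cells of the placode-enriched libraries came mainly from clusters 3 and 8, which held 50.2% and 45.3% of them in library 1 and 49.9% and 49.1% in library 2. In total epithelium, clusters 1, 2 and 0 held 50.6%, 27.1% and 18.5% of the basal-like cells. In CPM (the UMIs of a gene in the cells summed, scaled to 1000000 UMIs of those cells), the summed level of the 9 placode markers used for naming was 1333, 1181 and 1618 in placode-like cells, against 901, 771 and 610.3 in basal-like cells, and that of the 8 suprabasal markers was 7417, 9292 and 15084 in suprabasal-like cells, against 337, 299 and 1233 in basal-like cells.

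In basal-like cells Ccnd2 had 745, 679 and 723 CPM in placode-enriched libraries 1 and 2 and total epithelium, Ccnd3 had 140.2, 131 and 192 CPM, and Ccnd1 had 35.7, 37.1 and 33.0 CPM. Each UMI stands for the 3′ end of 1 molecule, so no length scaling was applied. By this count Ccnd2 was the most abundant of the 3 genes in placode-like, unnamed and basal-like cells of each library. It made up 86.5% ± 1.34 of all D-type cyclin UMIs in placode-like cells, 76.9% ± 2.19 in unnamed cells, 51.0% ± 7.37 in suprabasal-like cells and 79.1% ± 2.47 in basal-like cells (SD, n = 3 libraries).

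**Figure D1:**
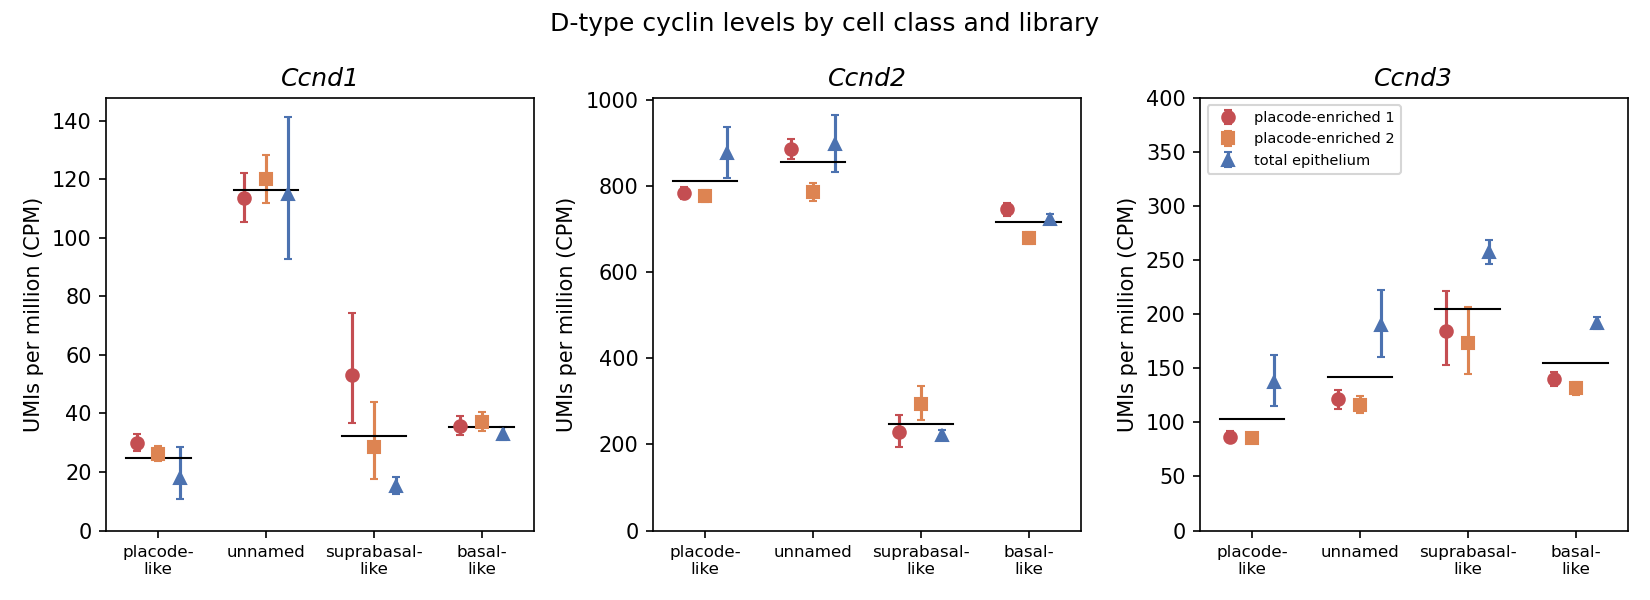
Levels of Ccnd1, Ccnd2 and Ccnd3 in CPM (vertical axis, starting at 0) by cell class (horizontal axis) and library (colours and shapes). Bars are exact 95% Poisson intervals, which cover counting error only, and black lines are means of the 3 libraries. Ccnd1 stands between 114 and 120.0 CPM in unnamed cells, Ccnd2 lies between 222 and 294 CPM in suprabasal-like cells, and Ccnd3 is lowest in placode-like cells.

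For Ccnd1 the mean levels ran from unnamed cells (116 ± 3.37 CPM) through basal-like (35.3 ± 2.07) and suprabasal-like (32.4 ± 19.3) to placode-like cells (24.7 ± 6.08; SD, n = 3 libraries each). Of these steps only the first was larger than the spread between libraries, since the range of suprabasal-like cells overlapped those of both its neighbours. The ranges of placode-like cells (18.0 to 29.9 CPM) and basal-like cells (33.0 to 37.1 CPM) did not overlap. For Ccnd2 the order was unnamed (856 ± 60.5 CPM), placode-like (812 ± 55.9), basal-like (716 ± 33.9) and suprabasal-like cells (248 ± 39.6). The ranges of unnamed and placode-like cells overlapped, and those of the lower neighbours did not. For Ccnd3 the order was suprabasal-like (205 ± 45.6 CPM), basal-like (155 ± 32.7), unnamed (142 ± 41.0) and placode-like cells (103 ± 29.7). All neighbouring ranges of Ccnd3 overlapped. Total epithelium was higher than both placode-enriched libraries in each of the 4 classes, and the order of the classes was the same in 3 of 3 libraries.

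In CPM, placode-like cells had less Ccnd3 and slightly more Ccnd2 than basal-like cells. Ccnd3, a D-type cyclin best known from blood cell development, had 86.8, 85.2 and 137 CPM in placode-like cells of placode-enriched libraries 1 and 2 and total epithelium, against 140.2, 131 and 192 CPM in basal-like cells. It was lower in placode-like cells of 3 of 3 libraries. Its log2 fold change was -0.64 ± 0.05 (SE), or 1.56-fold lower there (UMIs summed per library and class, tested by edgeR quasi-likelihood with library as a block, Benjamini-Hochberg adjusted p = 3.1e-10). That direction and call held in all 16 alternative settings tried, between -0.69 and -0.54.

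Ccnd2 had 783, 776 and 876 CPM in placode-like cells, against 745, 679 and 723 CPM in basal-like cells. Placode-like cells were higher in each library, by 0.16 ± 0.03 on the log2 scale (edgeR adjusted p = 5.1e-04). The direction held in 16 of 16 alternatives, and 3 of them missed the threshold. Those were cells thinned to an equal depth (0.11), a fit without the library block (0.17) and Mki67-negative cells only (0.084). Counted per cell, Ccnd2 stood at 17.2, 17.8 and 16.5 UMIs in placode-like cells, against 20.2, 19.5 and 16.6 UMIs in basal-like cells. On that count placode-like cells were lower, by little in total epithelium. Their median total was 21178, 22057 and 17868 UMIs, against 26392.5, 28723 and 21873.5 UMIs in basal-like cells.

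Ccnd1 had 29.9, 26.2 and 18.0 CPM in placode-like cells, against 35.7, 37.1 and 33.0 CPM in basal-like cells. The level in total epithelium rested on 18 UMIs in placode-like cells, against 870 UMIs in basal-like cells. The log2 fold change was -0.41 ± 0.08 (edgeR adjusted p = 3.1e-04), and its sign depended on where both classes end. With clusters built from the other set of genes it was 0.16 (adjusted p = 0.18). In that setting a cluster led by Wif1, with 75.8 CPM of Ccnd1 over all libraries, was named placode-like. With a stricter basal rule the log2 fold change was 0.073 (adjusted p = 0.66). Without placode-enriched library 2 it was -0.38 (adjusted p = 0.087).

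All 3 cyclins passed the threshold of 0.05 between placode-like and basal-like cells, where 42.2% of the 12146 genes tested did. Between suprabasal-like and basal-like cells all 3 passed as well, against 36.4% of 11748 genes, and between unnamed and basal-like cells all 3 passed, against 34.2% of 11851 genes. A call was thus common among genes in these 3 comparisons. The 6 fibroblast markers in both tables, of 7 listed, moved with the classes: their summed level was 1302, 1144 and 1218 CPM in placode-like cells, 912, 919 and 1405 CPM in unnamed cells, 271, 179 and 310 CPM in suprabasal-like cells and 803, 672 and 879 CPM in basal-like cells. Their part in the cyclin differences was not tested.

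Suprabasal-like cells carried less Ccnd2, the main D-type cyclin of the other epithelial classes, and more Ccnd3 than basal-like cells. Ccnd2 had 229, 294 and 222 CPM in suprabasal-like cells of placode-enriched libraries 1 and 2 and total epithelium, against 745, 679 and 723 CPM in basal-like cells. The groups did not overlap. The log2 fold change was -1.59 ± 0.08, a 3.00-fold lower level in suprabasal-like cells (edgeR adjusted p = 2.4e-19). Direction and call were kept in 16 of 16 alternatives, between -2.71 and -1.23. For the fit on Mki67-negative cells only, the suprabasal-like sums of the placode-enriched libraries were 1 cell each. These cells had 463 and 1021 CPM of Ccnd2 in libraries 1 and 2, against 829.7 and 838 CPM in Mki67-negative basal-like cells. A Ccnd2 UMI was found in 81.0%, 75.0% and 74.7% of suprabasal-like cells, against 99.8%, 99.6% and 99.7% of basal-like cells. With each cell thinned to 5000 UMIs these shares were 57.1%, 50.0% and 43.7%, against 94.7%, 92.0% and 92.6%. No class here is known to lack a D-type cyclin, so the share that free RNA gives could not be measured.

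Ccnd3 had 185, 174 and 257 CPM in suprabasal-like cells, against 140.2, 131 and 192 CPM in basal-like cells. It was higher in suprabasal-like cells of each library, by 0.39 ± 0.08 on the log2 scale (edgeR adjusted p = 7.8e-05). The direction held in 16 of 16 alternatives and the call in 13. The summed D-type cyclin level was 486 ± 16.8 CPM in suprabasal-like cells and 905 ± 52.2 CPM in basal-like cells (SD, n = 3 libraries each). Ccnd3 made up 42.2% ± 8.80 of the D-type cyclin UMIs in suprabasal-like cells, against 17.0% ± 2.82 in basal-like cells.

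Ccnd1 had 53.2, 28.7 and 15.2 CPM in suprabasal-like cells, against 35.7, 37.1 and 33.0 CPM in basal-like cells. The placode-enriched libraries held only 34 and 21 Ccnd1 UMIs in 21 and 20 suprabasal-like cells, and the total epithelium library held 120 UMIs in 316 cells. Placode-enriched library 1 was higher in suprabasal-like cells and the other libraries were lower. The fitted log2 fold change of -0.59 ± 0.18 (edgeR adjusted p = 0.010) rested on total epithelium: without that library it was 0.11 (adjusted p = 0.82). It was also above 0 at clustering resolution 0.5 and with clusters from the other set of genes, at 1.20 and 1.33. There the suprabasal-like cluster held 69 and 82, and 64 and 79, cells of placode-enriched libraries 1 and 2. Its Ccnd1 over all libraries was 77.6 and 77.8 CPM, against 18.9 CPM in the suprabasal-like cluster used here.

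Of the unnamed, placode-like, suprabasal-like and basal-like classes, unnamed cells had the highest Ccnd1. Their level was 114, 120.0 and 115 CPM, against 35.7, 37.1 and 33.0 CPM in basal-like cells, from 705, 839 and 91 UMIs against 488, 549 and 870. No library of either group came near the other group. The log2 fold change was 1.64 ± 0.07, a 3.13-fold higher level in unnamed cells (edgeR adjusted p = 3.7e-09). The 13 alternatives that gave a value kept direction and call, between 0.80 and 2.13. This comparison was added because in earlier results of these data these clusters turned the direction of Ccnd1 between placode-like and basal-like cells. The p-value and the alternatives therefore give no independent support for Ccnd1. At clustering resolution 0.5 and with clusters built from the other set of genes every cluster met a marker rule, so there were no unnamed cells to compare. Counted per cell, Ccnd2 was lower, at 16.6, 16.4 and 13.9 UMIs in unnamed cells, against 20.2, 19.5 and 16.6 UMIs in basal-like cells. In CPM Ccnd2 was higher by 0.19 ± 0.04 on the log2 scale (edgeR adjusted p = 0.0025). Ccnd3 was lower by a log2 fold change of -0.22 ± 0.06 (edgeR adjusted p = 0.0087). Each of these smaller differences missed the threshold in 6 of 13 alternatives. Among those, without placode-enriched library 1 the values were 0.18 (adjusted p = 0.078) for Ccnd2 and -0.19 (adjusted p = 0.15) for Ccnd3, and without library 2 they were 0.21 (adjusted p = 0.069) and -0.20 (adjusted p = 0.16).

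The unnamed cells were of 2 kinds, and the split below was made after their values were seen, so it is given with no test. Cluster 11 had Zfp750, Grhl3, Krt17 and Notch1 among its leading genes and held 57, 77 and 11 cells of placode-enriched libraries 1 and 2 and total epithelium. Its Ccnd1 stood at 247, 251 and 177 CPM, from 329, 481 and 31 UMIs. Cluster 6 was led by Wif1, which encodes a secreted Wnt inhibitor, with Bdnf and Fgfr1 among its leading genes. Its Ccnd1 stood at 77.1, 70.6 and 97.5 CPM in 273, 258 and 40 cells. Cluster 11 had the highest Ccnd1 of the clusters with 10 or more cells in each library, and in total epithelium its exact 95% Poisson interval ran from 120.0 to 251 CPM. It met 3 of the 8 suprabasal markers and 2 of the 9 placode markers.

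**Figure D2:**
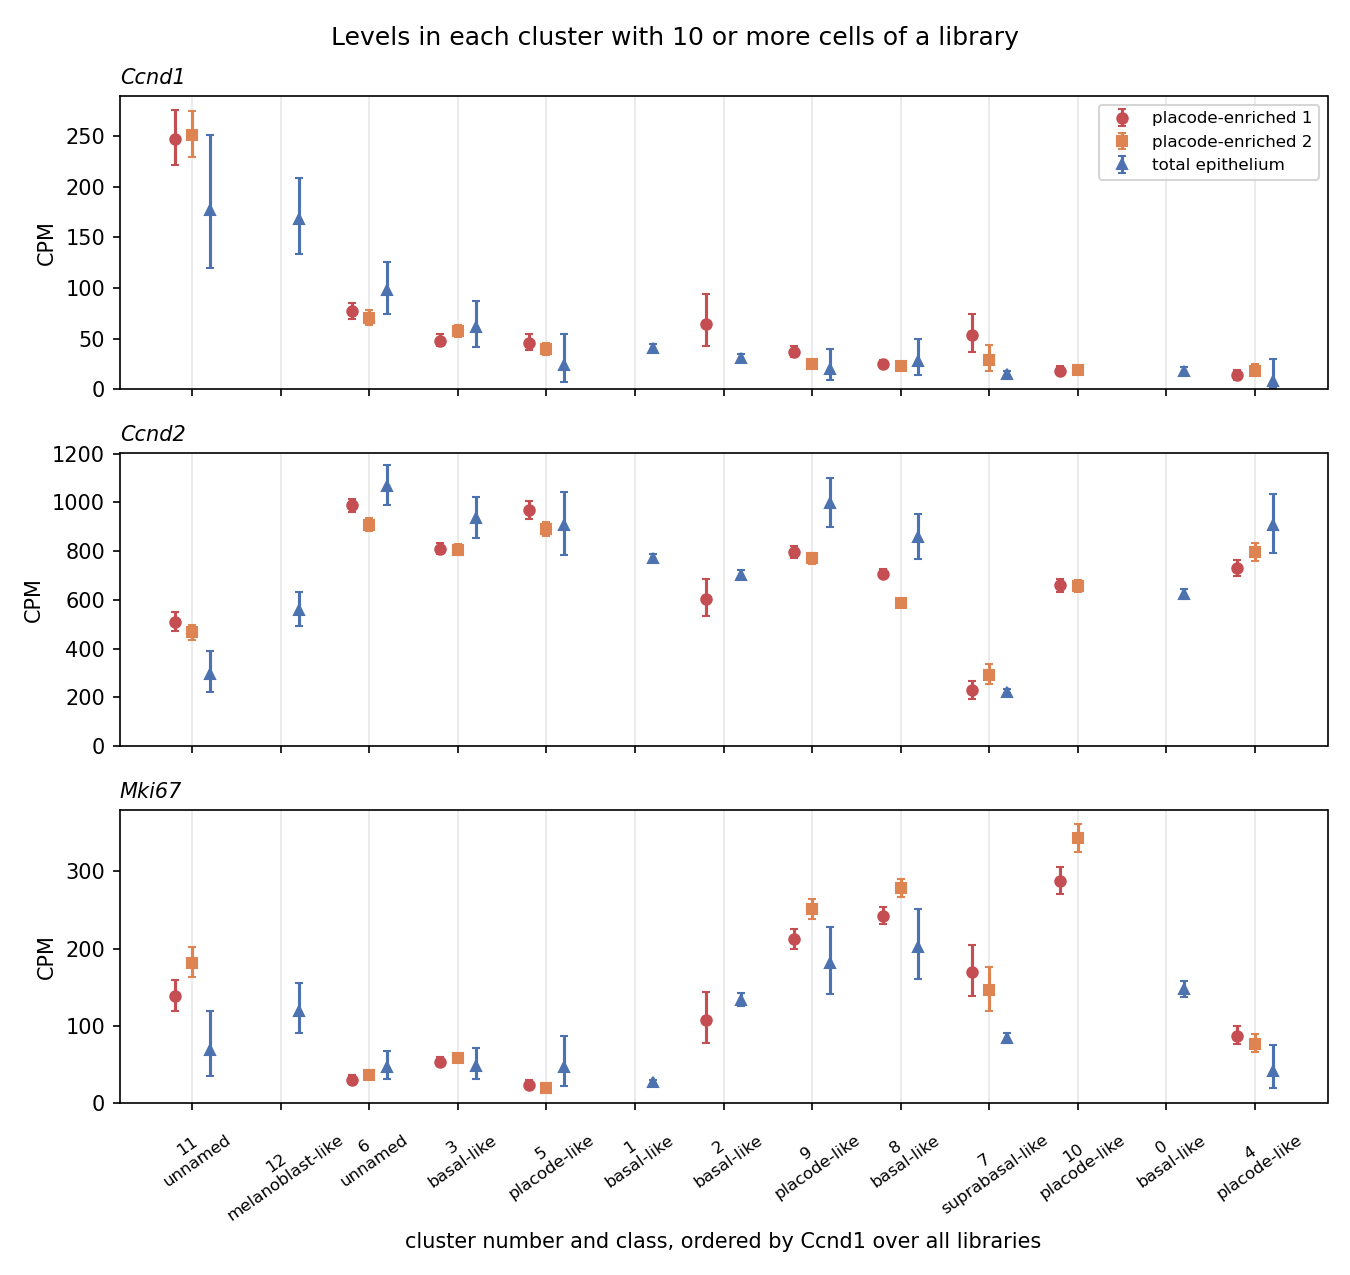
Levels of Ccnd1, Ccnd2 and Mki67 in CPM (vertical axes, starting at 0) in the 13 clusters (horizontal axis, with the class of each), ordered by Ccnd1 over all libraries. Points are libraries with 10 or more cells in a cluster, and bars are exact 95% Poisson intervals. Clusters 11 and 12 lead for Ccnd1, cluster 7 is lowest for Ccnd2, cluster 10 leads for Mki67, and cluster 4 is lowest for Ccnd1.

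Among basal-like clusters Ccnd1 varied as well. Cluster 3, led by Sostdc1, which encodes a secreted inhibitor of Wnt and Bmp signals, had 48.0, 57.5 and 61.5 CPM. Cluster 8, whose leading genes included Mki67, Cenpf and histone genes, had 25.1, 22.6 and 27.5 CPM. In total epithelium, cluster 1 had 41.1 CPM, cluster 2, led by histone genes, had 30.7 CPM, and cluster 0, led by Cdc20, had 18.1 CPM. Among placode-like clusters, cluster 5, led by Shh, had 46.0 and 39.3 CPM in the placode-enriched libraries, against 18.4 and 19.2 CPM in cluster 10, led by Cenpf. Cluster 4, led by a histone gene and Fgf20, had 13.7 and 18.4 CPM of Ccnd1, with 87.3 and 77.2 CPM of Mki67, against 288 and 343 CPM of Mki67 in cluster 10 and 24.1 and 20.2 CPM in cluster 5. These are values of clusters and carry no test.

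Melanoblast-like cells, the pigment cell precursors, numbered 20 in total epithelium, 1 in placode-enriched library 1 and 0 in library 2, which allows a share of up to 0.191%. The 20 cells had 168 CPM of Ccnd1 from 80 UMIs, 559.7 CPM of Ccnd2 and 145 CPM of Ccnd3. With 1 library there was no replicate and no test.

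In basal-like cells, those with an Mki67 UMI had lower CPM of Ccnd1 and of Ccnd2 than those without. Ccnd1 had 31.0, 33.1 and 29.3 CPM in Mki67-positive basal-like cells of placode-enriched libraries 1 and 2 and total epithelium, against 54.5, 56.0 and 40.9 CPM in Mki67-negative ones. The groups did not overlap. The log2 fold change was -0.65 ± 0.08, which is 1.57-fold lower in Mki67-positive cells (edgeR adjusted p = 1.0e-06). Ccnd2 had 724, 645 and 691 CPM in Mki67-positive basal-like cells, against 829.7, 838 and 791 CPM in Mki67-negative ones. Its log2 fold change was -0.26 ± 0.03 (edgeR adjusted p = 6.0e-07), with no overlap between the groups. Both calls were lost with the stricter basal rule, at -0.54 (adjusted p = 0.62) for Ccnd1 and -0.092 (adjusted p = 0.999) for Ccnd2. Ccnd3 had 141, 134 and 189 CPM, against 136, 121 and 198 CPM, and its log2 fold change of 0.017 had a 95% interval from -0.088 to 0.12 (adjusted p = 0.88).

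In placode-like cells the CPM of Ccnd2 was lower in Mki67-positive cells too, and that of Ccnd1 was uneven between libraries. Ccnd2 had 766, 742 and 861 CPM in Mki67-positive placode-like cells, against 849.6, 892 and 925 CPM in Mki67-negative ones. It was lower in Mki67-positive cells of each library (log2 fold change -0.18 ± 0.04, edgeR adjusted p = 0.0019). Ccnd1 had 27.3, 23.1 and 19.8 CPM in Mki67-positive cells, against 40.5, 36.9 and 12.6 CPM in Mki67-negative ones. It was lower in both placode-enriched libraries and higher in total epithelium, where the levels rested on 15 and 3 UMIs. Its log2 fold change was -0.58 ± 0.12 (edgeR adjusted p = 2.6e-04). Without placode-enriched library 1 the calls were lost for Ccnd1 (-0.55, adjusted p = 0.41) and Ccnd2 (-0.19, adjusted p = 0.30), and without library 2 as well (-0.48, adjusted p = 0.35, and -0.13, adjusted p = 0.53). DESeq2 called neither (adjusted p = 0.62 and 0.35). Ccnd3 had 86.6, 86.3 and 132 CPM in Mki67-positive cells, against 87.8, 81.1 and 155 CPM in Mki67-negative ones (log2 fold change 0.037, 95% interval -0.12 to 0.19, adjusted p = 0.82).

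**Figure D3:**
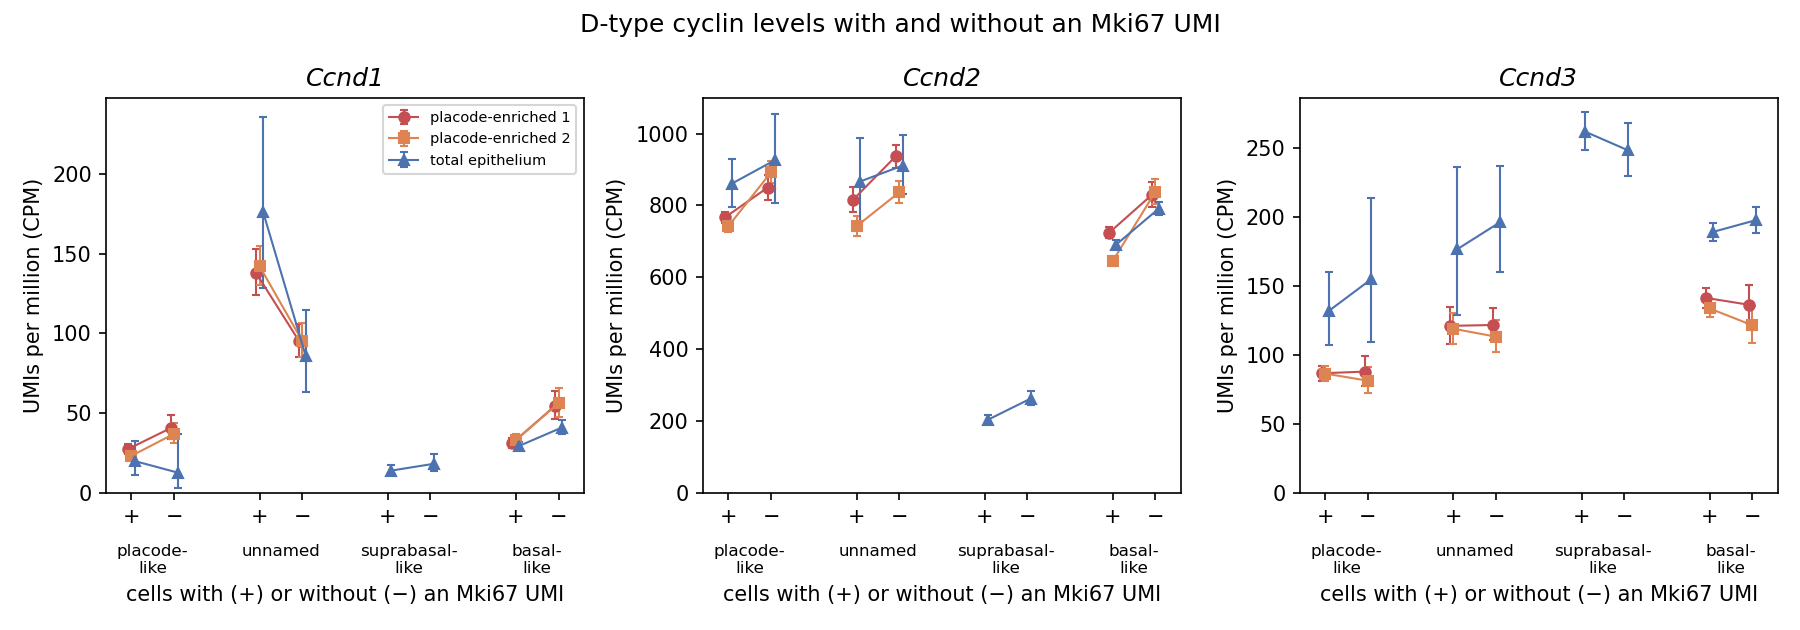
Levels of the 3 cyclins in CPM (vertical axes, starting at 0) in cells with (+) and without (−) an Mki67 UMI, by class (horizontal axis) and library (colours and shapes, lines joining the cells of 1 library). Bars are exact 95% Poisson intervals. Suprabasal-like cells of the placode-enriched libraries are not drawn, because each holds 1 Mki67-negative cell. Ccnd1 is lower in Mki67-positive than in Mki67-negative basal-like cells of each library, at 29.3 to 33.1 against 40.9 to 56.0 CPM.

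Of the 3 cyclins, 2 passed the threshold in placode-like cells, where 15.1% of 10128 genes did, and 2 in basal-like cells, where 12.3% of 11564 genes did. In suprabasal-like cells 0 of 3 passed by edgeR, against 2.36% of 6228 genes; 0 of 3 had an unadjusted p under 0.05 and DESeq2 called 0. There the Mki67-negative cells of each placode-enriched library came to 1, so the levels of total epithelium are the informative ones. In that library Ccnd1 had 13.8 CPM in Mki67-positive and 18.1 CPM in Mki67-negative suprabasal-like cells, Ccnd2 had 203 and 262 CPM, and Ccnd3 had 262 and 248 CPM.

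Mki67-positive cells were larger in UMIs than Mki67-negative cells, with medians of 29308, 31080 and 24392 against 22084, 21909 and 19528 UMIs in basal-like cells. Counted per cell rather than in CPM, Ccnd2 stood at 21.0, 19.9 and 17.2 UMIs in Mki67-positive basal-like cells, against 17.6, 18.1 and 15.5 UMIs in Mki67-negative ones. Ccnd1 stood at 0.899, 1.02 and 0.731 UMIs per Mki67-positive basal-like cell, against 1.16, 1.21 and 0.799 UMIs. On this count Ccnd2 was higher in Mki67-positive basal-like cells of each library, and Ccnd1 was still lower. In placode-like cells Ccnd1 stood at 0.658, 0.584 and 0.405 UMIs per Mki67-positive cell, against 0.651, 0.638 and 0.188 UMIs. There Ccnd2 stood at 18.5, 18.8 and 17.6 UMIs per Mki67-positive cell, against 13.7, 15.4 and 13.8 UMIs per Mki67-negative cell. On this count it was higher in Mki67-positive placode-like cells of each library.

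In basal-like cells of the placode-enriched libraries and total epithelium, the CPM of Ccnd1 was lower in each higher bin of Mki67 UMIs. It was 54.5, 56.0 and 40.9 CPM in cells with 0 Mki67 UMIs, 37.7, 51.1 and 35.5 CPM with 1 to 2, 30.5, 30.6 and 24.6 CPM with 3 to 9, and 25.4, 26.2 and 22.4 CPM with 10 or more. The Poisson intervals of the bins 3 to 9 and 10 or more overlapped in each library. Counted per cell, the order did not hold. From the lowest to the highest bin Ccnd1 stood at 1.16, 0.839, 0.921 and 0.947 UMIs in library 1. In library 2 it stood at 1.21, 1.23, 0.928 and 0.991 UMIs, and in total epithelium at 0.799, 0.778, 0.680 and 0.739 UMIs. Deeper cells fall more often into the higher bins, so the order in CPM is a description. Within clusters 1 and 3 the difference was smaller. These had the lowest Mki67 of the basal-like clusters, at 27.3 and 55.9 CPM over all libraries, and the other basal-like clusters are not given here. In cluster 1 of total epithelium Ccnd1 had 41.3 CPM in Mki67-positive and 41.0 CPM in Mki67-negative cells. In cluster 3 it had 42.8 and 57.5 CPM in Mki67-positive cells of placode-enriched libraries 1 and 2, against 54.2 and 57.4 CPM in Mki67-negative cells. When cells were split by a UMI of Top2a, which encodes a DNA topoisomerase of dividing cells, the log2 fold change of Ccnd1 was -0.11 in basal-like cells (adjusted p = 0.53) and -0.21 in placode-like cells (adjusted p = 0.35), so the size of the difference depended on the marker used.

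The unnamed cells went the other way for Ccnd1, again as a description with no test. Ccnd1 had 138, 142 and 176 CPM in Mki67-positive unnamed cells, against 95.3, 95.2 and 85.9 CPM in Mki67-negative ones. Within cluster 11 it had 240.0 and 256 CPM in Mki67-positive cells of the placode-enriched libraries, against 262 and 237 CPM in Mki67-negative cells, and within cluster 6 it had 85.1 and 75.1 CPM, against 72.6 and 66.8 CPM. Ccnd2 in unnamed cells had 816, 742 and 866 CPM in Mki67-positive cells, against 937, 836 and 911 CPM in Mki67-negative ones.

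Whether the Mki67 difference itself varied between classes was tested with an interaction term. For placode-like minus basal-like cells the term was 0.069 (95% interval -0.23 to 0.37) for Ccnd1, 0.085 (-0.024 to 0.19) for Ccnd2 and 0.024 (-0.17 to 0.21) for Ccnd3. By edgeR 0 of 3 passed the threshold, 0 had an unadjusted p under 0.05 and DESeq2 called 0, against 1.37% of 11493 genes. For suprabasal-like minus basal-like cells 0 of 3 passed as well, with 0 at an unadjusted p under 0.05 and 0 by DESeq2, against 0.41% of 10232 genes. These intervals leave room for differences, most of all in suprabasal-like cells, where that of Ccnd1 ran from -0.32 to 0.84.

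The class differences were also compared between the sorts. The placode-like over basal-like log2 ratio of Ccnd1 was -0.25 and -0.50 in placode-enriched libraries 1 and 2, against -0.87 in total epithelium; that of Ccnd3 was -0.69 and -0.63, against -0.48. The interaction term with the sort passed the threshold for 0 of 3 cyclins by edgeR, with 0 at an unadjusted p under 0.05 and 0 by DESeq2, against 0.832% of 12146 genes. For the suprabasal-like over basal-like ratio 0 of 3 passed by edgeR and 0 by DESeq2, against 0.196% of 11748 genes, and 1 had an unadjusted p under 0.05. That was Ccnd1, whose ratio was 0.58 and -0.37 in the placode-enriched libraries, against -1.12 in total epithelium, a difference of 1.16 ± 0.33 (edgeR adjusted p = 0.42). With 1 total epithelium library these terms had 1 residual degree of freedom and assume that it varies like the others. Basal-like cells of the sorts were also largely different clusters, so sort and cluster cannot be told apart.

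**Figure D4:**
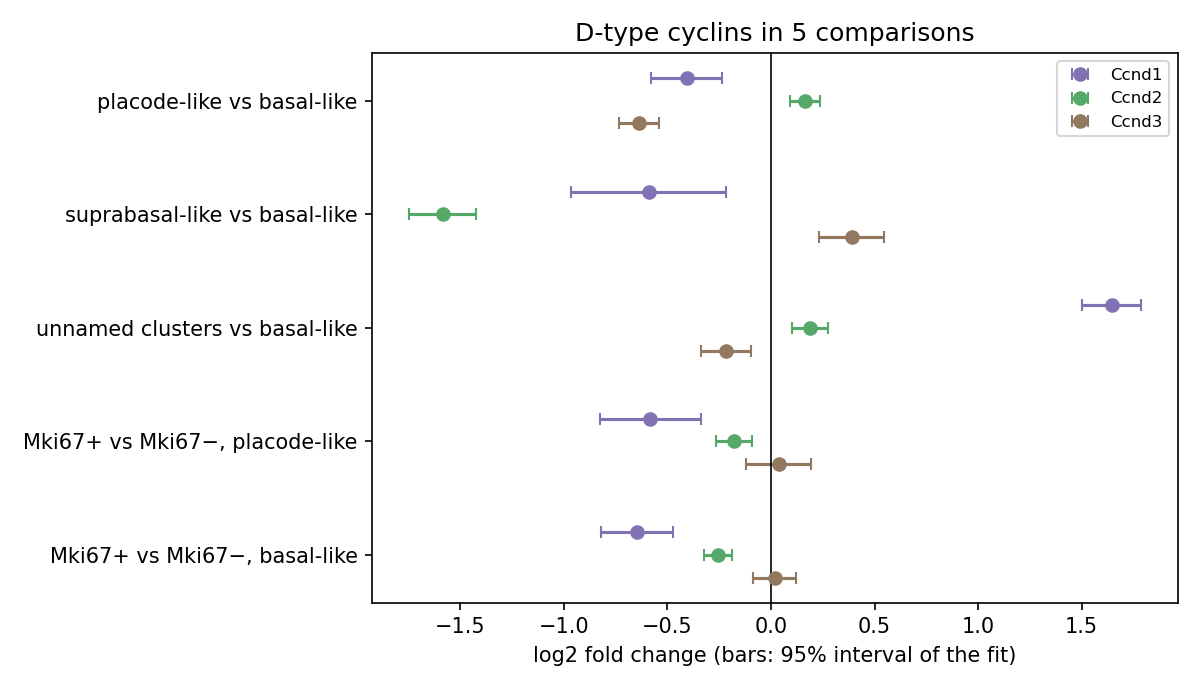
Fitted log2 fold changes of Ccnd1, Ccnd2 and Ccnd3 (horizontal axis, 0 marked) in 5 comparisons (rows), with 95% intervals from the edgeR fit as bars. Ccnd2 stands at -1.59 between suprabasal-like and basal-like cells, Ccnd1 at 1.64 between unnamed and basal-like cells, and Ccnd3 at -0.64 between placode-like and basal-like cells. The sign of Ccnd1 in the placode-like and suprabasal-like rows changed in other clusterings.

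The partners of the D-type cyclins differed between the classes too. Of the kinases Cdk4 and Cdk6, Cdk6 was lower in placode-like cells, with 31.7, 28.4 and 25.1 CPM against 58.9, 54.6 and 54.5 CPM in basal-like cells (log2 fold change -0.93 ± 0.07, edgeR adjusted p = 1.9e-10). Cdk4 was slightly higher, with 756, 749 and 781 CPM against 675, 681 and 681 CPM (0.16 ± 0.03, adjusted p = 2.5e-04). In suprabasal-like cells Cdk4 was lower, with 614, 569.8 and 576 CPM against 675, 681 and 681 CPM in basal-like cells (-0.25 ± 0.07, adjusted p = 0.0032). In unnamed cells Cdk6 was lower, with 42.9, 36.5 and 41.7 CPM against 58.9, 54.6 and 54.5 CPM (-0.56 ± 0.08, adjusted p = 9.4e-05).

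Of 7 CDK inhibitors, 6 were in both tables. Between suprabasal-like and basal-like cells 4 of the 6 tested were higher and 1 was lower, with a median log2 fold change of 0.70, where 17.1% of all genes were higher, 19.3% were lower and the median was -0.039. Cdkn1a, which encodes the CIP/KIP inhibitor p21, had 37.6, 58.8 and 89.5 CPM in suprabasal-like cells, against 3.07, 2.77 and 3.57 CPM in basal-like cells (4.37 ± 0.19, edgeR adjusted p = 1.1e-21). Cdkn2b, which encodes the INK4 inhibitor p15, had 12.5, 17.8 and 12.5 CPM in suprabasal-like cells and was at 0 in basal-like cells of both placode-enriched libraries and at 0.266 CPM in those of total epithelium. Cdkn2c and Cdkn2d, 2 further INK4 genes, were higher by 0.84 ± 0.26 and 0.56 ± 0.16 on the log2 scale (adjusted p = 0.0082 and 0.0044). Cdkn1c, which encodes p57, was lower at -0.38 ± 0.09 (adjusted p = 0.0011).

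Between placode-like and basal-like cells 2 of 5 tested inhibitors were higher and 1 was lower, with a median of -0.060, where 21.3% of all genes were higher, 21% were lower and the median was 0.0054. Cdkn1c had 52.4, 46.0 and 66.2 CPM in placode-like cells, against 122, 124 and 143 CPM in basal-like cells (-1.31 ± 0.06, adjusted p = 5.1e-14). Cdkn1a had 9.56, 6.07 and 14.0 CPM, against 3.07, 2.77 and 3.57 CPM (1.49 ± 0.18, adjusted p = 7.1e-07). Between Mki67-positive and Mki67-negative basal-like cells 4 of 5 inhibitors were higher, with a median of 0.66, where 6.99% of all genes were higher, 5.34% were lower and the median was -0.015. Cdkn2d was higher by 1.40 ± 0.13 there and Cdkn2c by 2.53 ± 0.29 (adjusted p = 2.4e-09 and 7.5e-08).

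Of the 13 genes of the RB and E2F family, 1 was higher and 3 were lower in placode-like than in basal-like cells (median -0.20). Of all genes there 21.3% were higher and 21% lower. In suprabasal-like cells 3 were higher and 3 lower (median -0.18), against 17.1% and 19.3% of all genes. In unnamed cells 3 were higher and 2 lower (median -0.061), where 17.1% of all genes were higher and 17% lower and the median was 0.0015. Rb1, which encodes the retinoblastoma protein, had 12.5, 9.57 and 13.2 CPM in suprabasal-like cells, against 7.16, 5.20 and 4.82 CPM in basal-like cells (1.21 ± 0.26, adjusted p = 2.4e-04). E2f1, an activator of S phase genes, had 34.3, 34.3 and 43.0 CPM in unnamed cells, against 21.0, 20.3 and 22.1 CPM in basal-like cells (0.70 ± 0.09, adjusted p = 4.1e-05). Between Mki67-positive and Mki67-negative basal-like cells 3 of the 13 genes were higher, 1 was lower and 9 were not called (median 0.12). The lower one was E2f1, with 16.8, 18.1 and 19.3 CPM against 38.3, 31.1 and 28.1 CPM in Mki67-negative cells (-0.78 ± 0.11, edgeR adjusted p = 6.2e-06). In the same comparison 10 of 14 S phase genes were lower and 1 was higher (median -0.63), with Ung and Mcm2 at -1.26 ± 0.08 and -0.82 ± 0.07. Of all genes there 6.99% were higher and 5.34% lower. All 12 of 12 G2 and M phase genes were higher (median 2.47). Mki67 RNA is highest in these phases, so the split itself sets that direction and it is no separate result. How far the same split also sets the lower level of S phase genes and E2f1 was not tested.

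Between placode-like and basal-like cells 14 of 14 S phase genes were lower (median -0.36), 6 of 12 G2 and M phase genes were higher (median 0.12), and of 7 later cyclins and their kinases 2 were higher and 3 lower (median -0.089). Of all genes in this comparison 21.3% were higher and 21% lower. In unnamed cells 12 of 12 G2 and M phase genes were lower than in basal-like cells (median -1.48), while 6 of 14 S phase genes were higher and 1 was lower (median 0.16), where 17.1% of all genes were higher and 17% lower. An Mki67 UMI was found in 38.8%, 47.2% and 27.5% of unnamed cells, against 74.7%, 76.9% and 62.3% of basal-like cells, or in 17.0%, 19.7% and 17.6% against 44.7%, 46.0% and 27.6% with cells thinned to 5000 UMIs. Placode-like cells had shares of 73.0%, 70.3% and 69.8%, or 42.8%, 47.1% and 39.6% when thinned, so most of them held an Mki67 UMI at full depth. Of 4 genes of D-type cyclin turnover, 1 was higher and 2 lower in placode-like than in basal-like cells (median -0.17), set against the same 21.3% and 21%.

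Across the 24 sums of library, class and Mki67 state, Ccnd1 and Ccnd2 had a Pearson correlation of 0.36 on log2(CPM + 1), Ccnd2 and Ccnd3 of -0.54, and Ccnd1 and Ccnd3 of -0.093. Among 5521 genes with a mean of at least 20 CPM, those most like Ccnd1 were Rassf9 (0.79), Csrp1 (0.77) and Casp8ap2 (0.75). Those most like Ccnd2 were Mphosph8 (0.91), Tfap2b (0.91) and Txnrd1 (0.90), and those most like Ccnd3 were Anxa2, S100a11 and Degs1 (0.92 each). The sums share libraries and depth, 2 of them are single cells, and these correlations are descriptions.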

How the data were processed

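The deposited values were whole, unnormalized UMI counts per gene and cell from 10x Genomics 3′ libraries, per the labels' protocols and the values. The submitters' processing notes name Cell Ranger, Seurat and build mm10 with no versions. The annotation, strand setting and cell filters were not given in the labels or file headers. Total epithelium had its own table; in the placode-enriched table the number ending each barcode was taken as the library number, and a swap would change only names. A filter of 500 genes and 10% mitochondrial UMIs removed 0 cells. Scrublet in scanpy 1.11.5 called 4, 4 and 11 doublets (0.265%, 0.255% and 0.687%) in placode-enriched libraries 1 and 2 and total epithelium, few enough that doublets can remain.

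Cells were clustered (Leiden, resolution 1, 20 neighbours, 30 components of 1000 variable genes) on 7315 genes from an arbitrary hash set of 7368, without the cyclins, Mki67, Top2a, lists and markers. Names needed 6 of 9 placode markers or 4 of 8 suprabasal markers at 25% of the highest cluster's level, or 6 of 7 basal markers or 5 of 6 listed melanoblast markers at 50%. The basal rule was eased after the data were seen, since cluster 3 missed 1 marker narrowly; 7 of 7 was an alternative. A cluster that met the basal rule and another took the other name.

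UMIs were summed per library, class and Mki67 state (at least 1 UMI, against 0) and tested with edgeR 4.0.16 (quasi-likelihood, TMM, filterByExpr, library as a block, R 4.3.3) over all genes passing the filter, which the 3 cyclins passed in every comparison, with Benjamini-Hochberg adjustment and a threshold of 0.05. Library was a block because the classes of a library share its embryos and its preparation. Sums of a library deviated together from class means (correlations 0.45 to 0.83 over 3558 genes). What these shared deviations come from was not tested. The test was also run on counts simulated from its own fitted model for 3 comparisons. Such counts follow the model by construction, so they cannot show how well the p-values hold for the real libraries. With library as a block, p-values measure how a difference within libraries varies between the 3 libraries, and not the spread of levels between pools. Class comparisons and Mki67 splits had 2 residual degrees of freedom, so edgeR drew most of its estimate of that variation from all genes. Alternatives were DESeq2 1.42.0, other size factors, no filter, cells thinned to 5000 UMIs, no block, each library left out, other clusterings and basal rules, and other splits of cycling cells. Intervals are exact 95% Poisson ones and cover counting error only.

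The cyclins, lists, markers and tests were chosen with earlier results of these data known. Named genes were the cyclins, list genes past the threshold (up to 6 a list) and the 3 genes most correlated with each cyclin; clusters 11 and 6, the melanoblast-like cells and E2f1 in unnamed cells beside Ccnd1 were described after their values were seen.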

Additional observations from a re-analysis of the deposited data

Results flagged for a closer look

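In 3 cases both placode-enriched libraries moved one way and total epithelium the other between Mki67-positive and Mki67-negative cells. Whether the sorts differ in these was not tested. For Ccnd1 in placode-like cells the log2 ratio of the CPM levels, Mki67-positive over Mki67-negative, was -0.57 and -0.68 in placode-enriched libraries 1 and 2, against 0.65 in total epithelium, which held 15 and 3 Ccnd1 UMIs in these cells. For Ccnd3 in basal-like cells the ratio was 0.052 and 0.14 in the placode-enriched libraries, against -0.063 in total epithelium. For Ccnd3 in suprabasal-like cells it was -0.19 and -0.24 in the placode-enriched libraries, which held 1 Mki67-negative cell each, against 0.076 in total epithelium.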

How the results depend on the processing

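Of 191 values under alternatives for cyclin differences called in the report, 143 kept direction and call. Of 177 for differences not called there, 168 stayed uncalled, 35 of these with the other sign. The changed values given below are those that gained or lost a call. Of 123 counts of genes past the threshold, 63 stayed within 1.5 times. The lower Ccnd3 in placode-like cells, the lower Ccnd2 in suprabasal-like cells and the higher Ccnd1 in unnamed cells kept direction and call in each alternative that gave a value. Ccnd1 in placode-like and in suprabasal-like cells, both against basal-like cells, did not. The comparison of unnamed cells was added because of earlier Ccnd1 results of these data, so its steadiness for Ccnd1 gives no independent support. The cause of each change was not tested, except that thinning and leaving out libraries leave fewer UMIs or samples and the set of genes not used to cluster is smaller by construction. The basal rule, the Mki67-only fits and the genes not used to cluster were chosen after seeing the data. As fitted in the report, the genes past the threshold numbered 5131 for placode-like against basal-like, 4276 for suprabasal-like against basal-like, 4049 for unnamed against basal-like, 1530 for the placode-like Mki67 split, 1426 for the basal-like Mki67 split, 147 for the suprabasal-like Mki67 split, 157 for the placode-like Mki67 interaction, 42 for the suprabasal-like Mki67 interaction, 101 for the placode-like sort interaction and 23 for the suprabasal-like sort interaction.

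By DESeq2 the changed log2 values were Ccnd1 -0.39 for suprabasal-like against basal-like, Ccnd1 -0.50 and Ccnd2 -0.17 for the placode-like Mki67 split. Gene counts were 2810 for placode-like against basal-like, 2601 for suprabasal-like against basal-like, 2457 for unnamed against basal-like, 398 for the placode-like Mki67 split, 400 for the basal-like Mki67 split, 7 for the suprabasal-like Mki67 split, 16 for the placode-like Mki67 interaction, 0 for the suprabasal-like Mki67 interaction, 36 for the placode-like sort interaction and 10 for the suprabasal-like sort interaction. With no filter on low counts the changed log2 values were Ccnd1 1.15 for the suprabasal-like sort interaction. Counts of genes came to 237 for the placode-like Mki67 interaction and 63 for the suprabasal-like sort interaction. With cells thinned to 5000 UMIs the changed log2 values were Ccnd1 -0.36 and Ccnd2 0.11 for placode-like against basal-like, Ccnd3 0.30 for suprabasal-like against basal-like, Ccnd1 -0.33 for the placode-like Mki67 split, Ccnd1 -0.54 for the basal-like Mki67 split. The gene counts came to 2531 for placode-like against basal-like, 2116 for suprabasal-like against basal-like, 1854 for unnamed against basal-like, 403 for the placode-like Mki67 split, 321 for the basal-like Mki67 split, 7 for the suprabasal-like Mki67 split, 8 for the placode-like Mki67 interaction, 1 for the suprabasal-like Mki67 interaction, 16 for the placode-like sort interaction and 10 for the suprabasal-like sort interaction. With no replicate block, that is without the pairing by library, the changed log2 values were Ccnd1 -0.40 and Ccnd2 0.17 for placode-like against basal-like, Ccnd1 -0.53 and Ccnd3 0.42 for suprabasal-like against basal-like, Ccnd2 0.19 and Ccnd3 -0.24 for unnamed against basal-like, Ccnd1 -0.56 and Ccnd2 -0.15 for the placode-like Mki67 split, Ccnd1 -0.68 and Ccnd2 -0.26 for the basal-like Mki67 split. Gene counts were 2611 for placode-like against basal-like, 2280 for unnamed against basal-like, 461 for the placode-like Mki67 split and 240 for the basal-like Mki67 split. At clustering resolution 0.5 the changed log2 values were Ccnd1 1.20 for suprabasal-like against basal-like, Ccnd1 3.02 and Ccnd2 0.55 for the suprabasal-like sort interaction. Counts of genes came to 237 for the placode-like sort interaction and 753 for the suprabasal-like sort interaction. At clustering resolution 2 the changed log2 values were Ccnd2 0.11 and Ccnd3 -0.15 for unnamed against basal-like. The gene counts came to 66 for the placode-like sort interaction and 0 for the suprabasal-like sort interaction. With clusters from the other set of genes the changed log2 values were Ccnd1 0.16 for placode-like against basal-like, Ccnd1 1.33 for suprabasal-like against basal-like, Ccnd2 -0.33 for the placode-like sort interaction, Ccnd1 3.10 and Ccnd2 0.70 for the suprabasal-like sort interaction. Gene counts were 45 for the placode-like Mki67 interaction, 206 for the placode-like sort interaction and 882 for the suprabasal-like sort interaction. With unnamed clusters counted as basal-like gene counts were 277 for the placode-like sort interaction and 44 for the suprabasal-like sort interaction. With 7 of 7 basal markers the changed log2 values were Ccnd1 0.073 for placode-like against basal-like, Ccnd1 -0.32 for suprabasal-like against basal-like, Ccnd3 -0.13 for unnamed against basal-like, Ccnd1 -0.54 and Ccnd2 -0.092 for the basal-like Mki67 split. The gene counts came to 239 for the basal-like Mki67 split. In Mki67-negative cells only the changed log2 values were Ccnd2 0.084 for placode-like against basal-like, Ccnd1 -0.99 and Ccnd3 0.20 for suprabasal-like against basal-like, Ccnd2 0.078 and Ccnd3 -0.14 for unnamed against basal-like. Gene counts were 2562 for placode-like against basal-like, 1290 for suprabasal-like against basal-like and 2221 for unnamed against basal-like. The suprabasal-like sums of both placode-enriched libraries were 1 cell each in this setting. In Mki67-positive cells only the changed log2 values were Ccnd1 -0.46 for suprabasal-like against basal-like, Ccnd2 0.15 for unnamed against basal-like. Over genes not used to cluster gene counts were 2514 for placode-like against basal-like, 2084 for suprabasal-like against basal-like, 2040 for unnamed against basal-like, 63 for the placode-like sort interaction and 13 for the suprabasal-like sort interaction. With 3 or more Mki67 UMIs against 0 gene counts were 69 for the suprabasal-like Mki67 interaction. With cells split by Top2a the changed log2 values were Ccnd1 -0.21 and Ccnd2 -0.10 for the placode-like Mki67 split, Ccnd1 -0.11 for the basal-like Mki67 split, Ccnd2 0.99 for the suprabasal-like Mki67 split, Ccnd1 1.49 and Ccnd2 0.71 for the suprabasal-like Mki67 interaction. Counts of genes came to 376 for the suprabasal-like Mki67 split, 75 for the placode-like Mki67 interaction and 197 for the suprabasal-like Mki67 interaction.

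With each library left out in turn, the log2 values ran from -0.58 to -0.38 for Ccnd1 in placode-like against basal-like, from -0.93 to 0.11 for Ccnd1 in suprabasal-like against basal-like, from 0.18 to 0.21 for Ccnd2 in unnamed against basal-like, from -0.25 to -0.19 for Ccnd3 in unnamed against basal-like, from -0.61 to -0.48 for Ccnd1 in the placode-like Mki67 split, from -0.19 to -0.13 for Ccnd2 in the placode-like Mki67 split. The genes past the threshold numbered 2546 to 5599 for placode-like against basal-like, 1899 to 3999 for suprabasal-like against basal-like, 2096 to 4885 for unnamed against basal-like, 328 to 1932 for the placode-like Mki67 split, 28 to 163 for the suprabasal-like Mki67 split, 56 to 158 for the placode-like Mki67 interaction, 23 to 163 for the suprabasal-like Mki67 interaction. A lone library left in a group is assumed to vary like the others. Sort interactions could not be fitted with a library left out, and resolution 0.5 and clusters from the other set of genes left no unnamed cluster. Ccnd1 rested on 18 UMIs in placode-like cells of total epithelium and on 34 and 21 UMIs in suprabasal-like cells of the placode-enriched libraries. The replicate block changed no call other than those given.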

Other observations

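Cells were also sorted by which D-type cyclins they showed after thinning to 5000 UMIs. A UMI of Ccnd1 without any of Ccnd2 was found in 3.33%, 4.78% and 5.88% of unnamed cells of placode-enriched libraries 1 and 2 and total epithelium and in 9.52%, 5% and 0.633% of the 21, 20 and 316 suprabasal-like cells, against 0.988%, 0.583% and 0.696% of basal-like cells. At full depth every cell of the placode-like, unnamed, suprabasal-like and basal-like classes held a UMI of at least 1 of the 3 genes. UMIs of all 3 were found at full depth in 26.7%, 30.4% and 22.6% of placode-like cells, 53.9%, 51.0% and 58.8% of unnamed cells, 38.1%, 30% and 19.0% of suprabasal-like cells and 46.8%, 45.6% and 43.0% of basal-like cells.

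Ccnd1 and Ccnd2 moved apart among the unnamed cells with the most Mki67. In the 8 and 16 unnamed cells with 10 or more Mki67 UMIs in placode-enriched libraries 1 and 2, Ccnd1 had 262 and 222 CPM and Ccnd2 had 98.6 and 192 CPM. In the 202 and 177 unnamed cells with 0 Mki67 UMIs, Ccnd1 had 95.3 and 95.2 CPM and Ccnd2 had 937 and 836 CPM. These bins hold few cells, mix the 2 unnamed clusters in different shares, and were chosen after their values were seen.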
